A study of Mus musculus with 4 samples.

Results

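Ribosomal proteins were the genes whose array name begins with "Ribosomal protein" or "Mitochondrial ribosomal protein", with ribosomal protein kinases left out. Of 16463 transcript probes on the array, 90 were members, on 106 spots per array. They comprised 29 proteins of the large and 21 of the small subunit of the cytosolic ribosome, and 40 of the mitochondrial ribosome, of which 23 are named for its large and 17 for its small subunit. The rule used names only and no measured value, but the members were chosen with earlier results of these data known. Of the 90, 75 were named through a RefSeq accession and 15 from the name in the file.

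The study compared mouse embryonic fibroblasts (MEFs) that received Dlx3, a homeobox transcription factor, with control MEFs on 4 oligonucleotide arrays read in 2 colours. On the 2 stable arrays, RNA of MEFs stably transfected with a Dlx3 plasmid (Cy5) was set against RNA of MEFs given the empty plasmid (Cy3). On the 2 transient arrays, RNA of MEFs transfected with Dlx3 for 24 h (Cy5) was set against RNA of control MEFs (Cy3), and the labels do not say whether those controls received a plasmid. The promoter of the plasmid, the number of stable clones and the strain and age of the embryos are not given in the sources used here, and the second array of each group is labelled a biological repeat. All values below are log2 ratios of Dlx3 over control, so a value below 0 means less signal in the Dlx3 cells. The dyes ran the same way on every array, so a dye effect and the effect of Dlx3 cannot be told apart in a single group's ratio. In RNA from a whole culture, fewer cells and less RNA per cell cannot be told apart either.

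Per array, 77.3 to 87.2% of transcript spots exceeded their local background. So did 28.6 to 54.2% of the randomized oligonucleotides, which have no target, so exceeding background does not by itself show that a transcript was detected. Of 13 fibroblast markers, 9 had a probe, and 5 of those (Col1a2, Col5a2, Vim, Pdgfrb and Sparc) were brighter than the 95th percentile of the randomized oligonucleotides. No epithelial, leukocyte or pluripotency marker was, and of the endothelial markers Kdr was. The Dlx3 probe read 0.06 and 0.23 in stable and 0.14 and 0.56 in transient transfectants, which was called in neither group (limma adjusted p = 0.396 and 0.179), and it was not brighter than the randomized oligonucleotides.

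A ribosome joins a small subunit, which decodes the messenger, to a large subunit, which forms the peptide bond. Cytosolic ribosomal proteins are made in near equal amounts for ribosomes assembled in the nucleolus, and their mRNAs are among the most abundant of a growing cell. Many of these mRNAs begin with a run of pyrimidines, the terminal oligopyrimidine tract, through which mTOR signalling controls their translation. Mitochondrial ribosomal proteins are encoded in the nucleus, made in the cytosol and imported, and the mitochondrial ribosome makes the few proteins that mitochondrial DNA encodes.

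Because of that tract, the sequence at each gene's start is shown before the values. RefSeq start sequences (build GRCm38.p6) matched 72 of the 90 members, on 23 starts of cytosolic large, 18 of cytosolic small and 39 of mitochondrial genes. An unbroken run of at least 8 bases, each C or T on the strand that reads as the mRNA, was sought. It had to reach within 10 bases of the start on either side, so it could lie wholly before the mRNA. Such a run stood at 10 of the 23, 5 of the 18 and 5 of the 39, which are not counts of terminal oligopyrimidine tracts. Where a gene had a single start sequence, 74.7% of these starts matched the start in the gene table. Of all 32851 RefSeq starts, 13.7% had such a run, so the mitochondrial share (12.8%) was near that of all genes and the cytosolic shares (43.5 and 27.8%) were above it. The windows below hold 25 bases before and 25 from the start, 5′ to 3′, for members that were called in the stable group, with the longest such run of each in capitals. Rpl13a and Rps6 hold a run of at least 8 and Rpl27 and Rps3a1 a shorter one, while the mitochondrial genes are the 4 whose calls held under every alternative in which they were tested.
Rpl13a: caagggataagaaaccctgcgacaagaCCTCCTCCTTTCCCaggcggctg
Rps6: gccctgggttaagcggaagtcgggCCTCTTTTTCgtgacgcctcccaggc
Rpl27: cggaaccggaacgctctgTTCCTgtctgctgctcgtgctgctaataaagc
Rps3a1: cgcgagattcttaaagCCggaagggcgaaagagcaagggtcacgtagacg
Mrpl11: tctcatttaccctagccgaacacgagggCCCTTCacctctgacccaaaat
Mrpl32: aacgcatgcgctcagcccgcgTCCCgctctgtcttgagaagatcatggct
Mrpl36: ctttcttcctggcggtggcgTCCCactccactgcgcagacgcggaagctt
Mrps30: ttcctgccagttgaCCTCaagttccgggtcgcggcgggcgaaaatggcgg
The longest runs were 14 bases for Rpl13a, 10 for Rps6, 5 for Rpl27 and 2 for Rps3a1, against 6 for Mrpl11 and 4 for each of the other mitochondrial genes shown. Of the called mitochondrial genes not shown, Mrps23 had a run of 9 that lay wholly before the start, and Mrpl55, Mrps12 and Mrps22 had runs of 4. No window was obtained for the called cytosolic genes Rpl7 and Rpl21. The windows lie on the minus strand at chr7:45128721-45128770 (Rpl13a), chr4:86857343-86857392 (Rps6), chr3:86142644-86142693 (Rps3a1), chr13:14613013-14613062 (Mrpl32) and chr13:118387228-118387277 (Mrps30). On the plus strand they lie at chr11:101442220-101442269 (Rpl27), chr19:4962281-4962330 (Mrpl11) and chr13:73330984-73331033 (Mrpl36). Rpl13a, with the longest run shown, which begins at base 3 from the start, rose. Rps6 fell, in a call that held in 6 of 14 alternatives. So few genes do not show how a run relates to direction.

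Cytosolic probes were among the brightest on the arrays and mitochondrial probes were not. The median foreground in the Dlx3 channel was 25358 over the cytosolic large, 26321 over the cytosolic small and 1411 over the mitochondrial members. A total of 87 members (27, 21 and 39 by class) were above background in either channel on at least 2 arrays and were tested. The other 3, Rpl18, Rpl9 and Mrps25, had foregrounds of at most 228 in the Dlx3 channel on any array, and no statement is made of them. Against the stricter bound of the randomized oligonucleotides, 26 of the 27, 19 of the 21 and 20 of the 39 passed and the other 19 mitochondrial members did not. At the other end, 16 cytosolic members and Mrps10 had over 10% saturated pixels in some channel of some array. The mouse genome holds many processed copies of cytosolic ribosomal protein genes, and hybridisation of those to the probes was not tested.

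**Figure D1:**
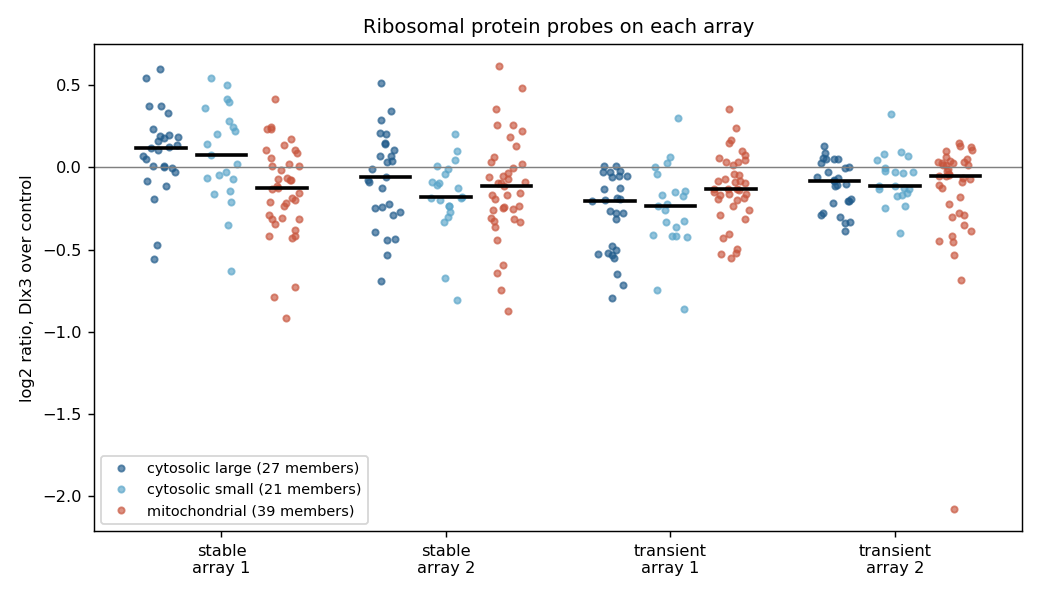
Log2 ratio of Dlx3 over control (y axis) for each tested ribosomal protein on each of the 4 arrays (x axis), by class, with 1 point per member and a bar at the class median. Cytosolic medians lay above 0 on stable array 1 and below 0 on the other 3 arrays, and the mitochondrial median lay below 0 on all 4.

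In stable transfectants the cytosolic large subunit did not move as a unit. Rpl13a and Rpl21 rose, Rpl7 and Rpl27 fell, and the other 23 tested members were not called. The class median was 0.03, with 14 means above 0 and 13 below, against a median of 0.01 over all tested probes. Calls were limma adjusted p-values under 0.05 over all probes, and in this group they took in 22.7% of probes (11.6% higher, 11.1% lower), so 4 of 27 is below the background share. Values above 0 on both arrays were found for 12 members and below 0 on both for 7, against 38.0 and 36.2% of all probes.

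Rpl13a, a large-subunit protein that in human cells also acts outside the ribosome as a translational silencer, read 0.54 on stable array 1 and 0.52 on stable array 2. Its transient arrays read -0.03 and 0.05, well below both stable values. The stable mean of 0.53 ± 0.02 (SD, n = 2, 1.44-fold, adjusted p = 0.0116) was larger than the spread between arrays. Rpl21 read 0.60 and 0.35 on the stable arrays and, on the transient arrays, -0.26 and 0.13, with no overlap between the groups. On the second transient array both channels of Rpl21 were saturated (70 and 77% of pixels), so the value of 0.13 is not exact. Its stable mean was 0.47 ± 0.18 (adjusted p = 0.0385), but its Dlx3 channel was saturated on both stable arrays, in 17 and 93% of pixels, so no exact fold is given. The mean was 0.32 with loess per print block and 0.28 in the authors' value table, and the call held in 3 of 13 alternatives. Next in order were Rpl27a at 0.37 and 0.15 and Rpl6 at 0.19 and 0.29, neither of which was called (adjusted p = 0.0737 and 0.0669).

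Rpl7, a large-subunit protein that binds ribosomal RNA, was low on all 4 arrays, at -0.56 and -0.69 in stable and -0.32 and -0.29 in transient transfectants. Its control channel was saturated on stable array 2 (37% of pixels) and on both transient arrays (46 and 65%). Its stable mean fell by 0.63 on the log2 scale (SD 0.10, n = 2, adjusted p = 0.00958). With saturated spots left out, only the value of stable array 1 (-0.56) remained, so that setting does not check the mean of the 2 arrays. Rpl27 was also low on all 4, at -0.47 and -0.39 in the stable group and -0.80 and -0.38 in the transient group. The stable mean of Rpl27 was -0.43 ± 0.06 (1.35-fold lower, adjusted p = 0.0403). Rpl26, which lies by the exit of the peptide tunnel, read -0.08 and -0.53 on the stable arrays, and this spread left its mean of -0.31 uncalled (adjusted p = 0.152). The Rpl13a and Rpl7 calls held without each array in turn, with adjusted p up to 0.0352 and 0.0284, whereas those of Rpl21 and Rpl27 were lost without any 1 of the 4 (adjusted p 0.0516 to 0.137 and 0.0511 to 0.111), and that of Rpl27 held in 6 of 14 alternatives in all. Rpl7 stood at -0.24 (adjusted p = 0.149) with loess fitted per print block, and Rpl13a at 0.315 in the authors' value table, and neither value was called.

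In the cytosolic small subunit 0 of 21 members rose and 2 fell in stable transfectants, against background shares of 11.6 and 11.1%. The class median was -0.03. Rps6, the substrate of the S6 kinases downstream of mTOR, read -0.63 and -0.23 in stable and -0.33 and -0.13 in transient transfectants, all below 0 and with the groups overlapping. Its stable mean was -0.43 ± 0.28 (adjusted p = 0.0439). Its control channel was saturated on stable array 2 and both transient arrays (69, 45 and 83% of pixels), and its Dlx3 channel on stable array 2 (14%), so these ratios are not exact. With saturated spots left out, only the Rps6 value of stable array 1 (-0.63) remained, so that setting does not check its stable mean. Rps3a1, listed in the files as Rps3a, read -0.35 and -0.24 in stable and -0.14 and -0.03 in transient transfectants, so that its groups did not overlap. On the second transient array the control channel of Rps3a1 was saturated (11% of pixels), so the value of -0.03 is not exact. With saturated spots left out, Rps3a1 was not called in the stable group. The stable mean of Rps3a1 was -0.29 ± 0.08 (adjusted p = 0.0462). The Rps3a1 call was lost without any 1 array (adjusted p 0.0609 to 0.112) and held in 5 of 14 alternatives. Of the arrays left out in turn, that of Rps6 held only without stable array 2 (adjusted p up to 0.143 without the others), it held in 6 of 14 alternatives, and with loess per print block its mean was -0.04 (adjusted p = 0.73).

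Rps23, which lies by the decoding centre, had a lower mean but was less even between the arrays, at -0.14 and -0.81 (mean -0.47, adjusted p = 0.101). Among the highest were Rps3 at 0.50 and 0.01 and Rps26 at 0.55 and -0.04, and neither was called. In both the first stable array was the higher. Over all 48 tested cytosolic members stable array 1 read above stable array 2 in 36, with a median difference of 0.22, while over all tested probes the median difference was -0.004.

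Mitochondrial ribosomal proteins were called in 1 direction, though not under every alternative. In stable transfectants 0 of 39 tested members rose and 8 fell, 4 named for the large and 4 for the small subunit. Of all probes, 11.6% were called higher and 11.1% lower. The share of mitochondrial members called in either direction, 20.5%, was near the 22.7% of all probes. The class median was -0.15, with 29 means below 0 and 10 above. Both stable arrays were below 0 for 24 of the 39, against 36.2% of all probes, and above 0 for 9. The count called lower was 5 with plain background subtraction and with scale normalization and 4 on the stable arrays alone. It was 9 with no subtraction and 9 with loess per print block, each with 1 member called higher. It was 10 in the authors' value table and 12 with median centring, with 0 called higher. Without stable array 1 some members were also called higher.

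Mrpl32, a large-subunit protein that the m-AAA protease trims after import, was the lowest member, at -0.79 and -0.74 on the stable and -0.23 and -0.05 on the transient arrays. The stable and transient values of Mrpl32 did not overlap. The stable mean was -0.77 ± 0.03 (1.70-fold lower, adjusted p = 0.00756). On 1 of the 2 stable arrays its control spot did not exceed background. Mrpl36, the counterpart of bacterial L36, read -0.92 and -0.44 in stable and -0.53 and -0.35 in transient transfectants. Its groups overlapped, and its stable mean of -0.68 ± 0.34 (adjusted p = 0.0186) came from a spot that did not exceed the randomized oligonucleotides.

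Mrpl11, the counterpart of bacterial L11 at the site where translation factors bind, was low on every array. It read -0.73 and -0.59 in stable and -0.55 and -0.42 in transient transfectants, and its stable mean was -0.66 ± 0.09 (1.58-fold lower, adjusted p = 0.00955). Mrps30 is named for the small subunit, although in the human mitochondrial ribosome it sits in the large one. Its stable values of -0.42 and -0.64 (mean -0.53 ± 0.16, adjusted p = 0.0147) lay below its transient values of -0.19 and -0.13. Mrpl11, Mrpl32, Mrpl36 and Mrps30 remained called under every alternative in which they were tested, and without each array in turn their adjusted p was at most 0.0269, 0.0215, 0.0398 and 0.0409.

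The other 4 calls were smaller. Mrps12, the counterpart of the bacterial decoding-centre protein S12, read -0.43 and -0.31 on the stable arrays (mean -0.37, adjusted p = 0.024) and was lower still on the transient arrays, at -0.49 and -0.45. Mrpl55, Mrps22 and Mrps23 are proteins with no bacterial counterpart. Their stable means were -0.32, -0.30 and -0.27 (adjusted p = 0.0351, 0.0475 and 0.049), from arrays at -0.31 and -0.33, -0.35 and -0.24, and -0.31 and -0.23. In Mrps23 the Dlx3 channel was above background on 1 of the 2 stable arrays. Like Mrpl36, the probes of Mrps12, Mrpl55 and Mrps23 did not exceed the randomized oligonucleotides, so these calls were not tested under that filter. The calls of Mrpl55, Mrps22 and Mrps23 were lost without any 1 array (highest adjusted p = 0.0878, 0.11 and 0.129), and that of Mrps12 without either transient array (adjusted p up to 0.07) and with loess per print block, where its mean was -0.15 (adjusted p = 0.19). Over all alternatives the calls of Mrpl55, Mrps22 and Mrps23 held in 6 of 13, 6 of 14 and 5 of 13. Leaving out either transient array leaves 4 mitochondrial and 6 members in all called in the stable group, whose values do not change but whose spread is then estimated from fewer arrays.

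Not every mitochondrial member was low. Mrpl51 read 0.09 and 0.49 and Mrpl33 0.14 and 0.36 on the stable arrays, and neither was called (adjusted p = 0.107 and 0.083). On stable array 2 Mrpl51 was above background in neither channel. Mrpl4, the highest by mean at 0.34, was above background in neither channel on either stable array, so its value carries no information on level. Mrps18a had the widest gap of the low members, at -0.13 and -0.88, and was not called (adjusted p = 0.0742).

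**Figure D2:**
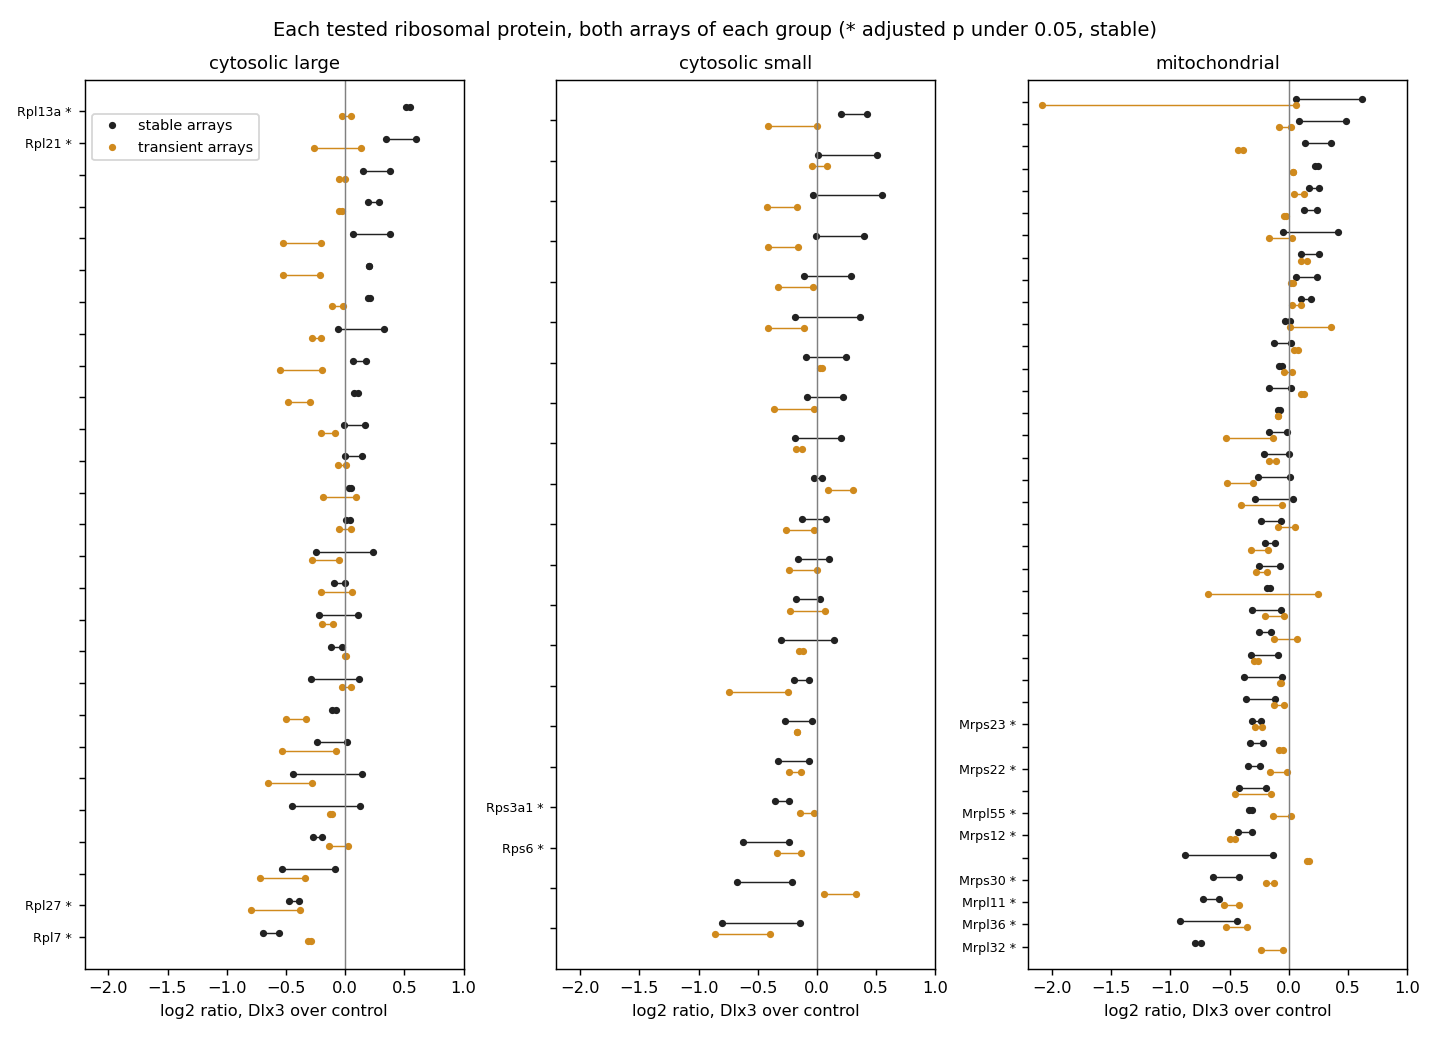
Log2 ratio of Dlx3 over control (x axis) for every tested ribosomal protein (y axis, by class, ordered by stable mean). The 2 stable arrays (black) and the 2 transient arrays (orange) are joined by a line, and the members called in the stable group are named and marked with an asterisk: 2 rose and 12 fell.

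In transient transfectants 0 of the 87 members were called at limma adjusted p under 0.05, where 0.144% of all probes were. Unadjusted p-values under 0.05 were reached by 22 of the 87 members, all with means below 0, and by 20.2% of all probes in either direction. The group means were below 0 for 24 of 27 cytosolic large, 17 of 21 cytosolic small and 30 of 39 mitochondrial members, with class medians of -0.14, -0.17 and -0.09 against 0.001 over all tested probes. Both transient arrays were below 0 for 17 of 27, 15 of 21 and 22 of 39, against 36.4% of all probes, and both above 0 for 0, 3 and 9, against 36.3%. The first transient array was the lower in 43 of the 48 cytosolic members, at a median of -0.23 against -0.09 on the second.

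Among the large-subunit proteins Rpl27, Rpl26 and Rpl30 had the lowest transient means. Rpl27 read -0.80 and -0.38 (mean -0.59, adjusted p = 0.085), Rpl26 -0.72 and -0.34 (mean -0.53, adjusted p = 0.127) and Rpl30 -0.65 and -0.28 (mean -0.47, adjusted p = 0.18). Each was below 0 on both transient arrays, and Rpl30 was above 0 on stable array 1 (0.14). In the small subunit the lowest were Rps23 at -0.86 and -0.40 (mean -0.63, adjusted p = 0.142), Rps27a at -0.75 and -0.25 (mean -0.50, adjusted p = 0.12) and Rps26 at -0.42 and -0.17 (mean -0.30, adjusted p = 0.32). Rps27a, which is made as a fusion with ubiquitin, had its control channel saturated on the second of these arrays (73% of pixels), so its second value and mean are not exact.

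The highest transient values were close to 0 in the large subunit, with means of 0.01 for Rpl10a, 0.01 for Rpl13a and 0.005 for Rpl8. Of these, Rpl8 had its control channel saturated on both transient arrays. In the small subunit Rps2 (0.30 and 0.09) was highest, and Rps4x had a mean of 0.03. Rps2 was saturated in both channels on all 4 arrays, so its value is not a measure of change.

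Of the mitochondrial members Mrpl11 (mean -0.49) and Mrps12 (mean -0.47) were lowest after Mrpl4, each with an adjusted p of 0.0708. Mrpl4 had a mean of -1.01 (adjusted p = 0.275), from arrays at 0.06 and -2.08, and without the second transient array it stood at 0.06. Mrps10 (0.36 and 0.01), Mrps18a (0.17 and 0.15) and Mrpl27 (0.15 and 0.10) were highest, and none was called. The count of 0 depended on how the spread was estimated. Fitted on the transient arrays alone, 11 members were called, all lower (5 cytosolic large, 1 cytosolic small and 5 mitochondrial) of 1288 probes called in all, and the count was likewise 11 without either stable array. The 11 were Rpl5, Rpl7, Rpl26, Rpl27, Rpl35, Rps23, Mrpl11, Mrpl33, Mrpl36, Mrpl52 and Mrps12.

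Some members were low in both groups. All 4 arrays were below 0 for 4 of 27 cytosolic large, 6 of 21 cytosolic small and 18 of 39 mitochondrial members, against 20.0% of all tested probes. The large-subunit members were Rpl7, Rpl26, Rpl27 and Rpl35, and the small-subunit members included Rps3a1, Rps6, Rps23 and Rps27a. The mitochondrial members included 7 of the 8 called in the stable group, Mrpl55 being the exception with 0.02 on the second transient array. The stable and transient ratios come from different control RNA, but they share the dye orientation, whose part in these values was not tested.

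The difference between the groups, stable minus transient, was called for 0 of 87 members, as for 0.240% of all probes, and 19 members had an unadjusted p under 0.05 (14 above 0 and 5 below), near the 19.5% of all probes. Means of this difference were above 0 for 22 of 27 cytosolic large and 15 of 21 cytosolic small members, with medians of 0.22 and 0.12. In the mitochondrial class they were split, 20 above and 19 below, with a median of 0.004. Both stable arrays lay above both transient arrays in 12 of 27, 4 of 21 and 10 of 39 members (28.5% of all probes), and below both in 3, 3 and 12 (26.7%). Set against all probes, the large subunit had a higher share above, the small subunit lower shares on both sides, and the mitochondrial shares were near the background.

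The smallest adjusted p of this difference was that of Mrpl33, at 0.66 (95% interval 0.36 to 0.95, limma adjusted p = 0.111), a spot not brighter than the randomized oligonucleotides. It read 0.14 and 0.36 in the stable group against -0.43 and -0.39 in the transient group. Mrpl32 differed the other way, by -0.62 (-0.91 to -0.34, adjusted p = 0.113). Rpl13a (0.52, interval 0.26 to 0.78) and Rpl24 (0.57, interval 0.24 to 0.90) followed with adjusted p of 0.122 and 0.15. Mrps18a differed by -0.66 (interval -1.23 to -0.09, adjusted p = 0.217). For Mrpl11 the difference was -0.17 (-0.46 to 0.11) and for Mrps12 it was 0.10 (-0.16 to 0.37), intervals that take in 0. Without stable array 1, 6 members were called, among them Mrpl33 (0.77), Rpl13a (0.51) and Mrpl51 (0.52, from an undetected stable spot) above 0 and Mrps18a (-1.04) and Mrpl32 (-0.60) below, while 1345 probes were called in all against 35.

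**Figure D3:**
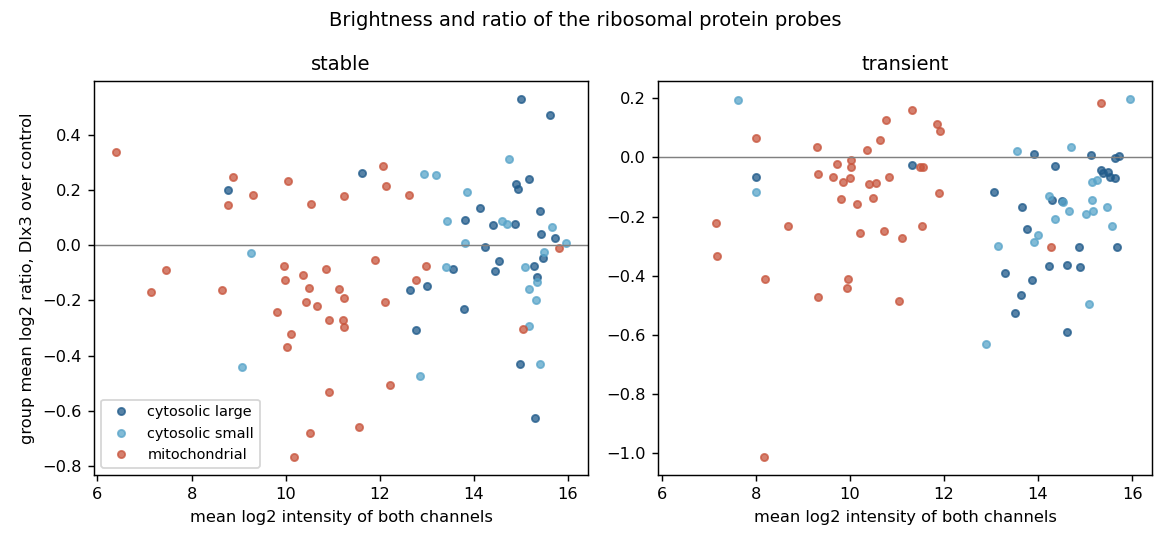
Group mean log2 ratio of Dlx3 over control (y axis) against the mean log2 intensity of both channels (x axis) for each tested ribosomal protein, in the stable (left) and transient (right) groups. Cytosolic members sit mostly at the bright end, and mitochondrial members lie at lower intensities with some of the lowest stable ratios.

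Cytosolic medians differed between normalizations. With each array centred on its median instead of loess, which sets the typical ratio at each brightness to 0, the cytosolic large median moved from 0.03 to -0.14 in the stable and from -0.14 to -0.32 in the transient group. The small-subunit median moved from -0.03 to -0.15 and from -0.17 to -0.35. The mitochondrial median moved from -0.15 to -0.17 and from -0.09 to -0.18, while the median of all tested probes stayed within 0.01 of 0 in both groups. The difference between stable and transient was close under both (0.22 and 0.24 in the large, 0.12 and 0.14 in the small subunit). Under median centring 10 members were called in the transient group, all lower, 6 of the cytosolic large subunit and 4 mitochondrial, of 647 probes called in all.

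Rpl5, which carries the 5S ribosomal RNA into the large subunit and can bind Mdm2, was printed at 17 spots per array with the same probe. Its mean over spots was 0.07 and 0.11 in the stable group and -0.48 and -0.30 in the transient group. Spots of an array scattered with an SD of 0.10, 0.07, 0.11 and 0.09 in that order of arrays. Spots lay between -0.03 and 0.31 and between -0.02 and 0.24 on the stable arrays, and between -0.65 and -0.13 and between -0.44 and -0.10 on the transient arrays. No spot of a transient array therefore reached the lowest spot of a stable array. Over the arrays the stable mean was 0.09 ± 0.03 (SD, n = 2, adjusted p = 0.439) and the transient mean was -0.39 ± 0.13 (adjusted p = 0.0932), a difference of 0.48 (95% interval 0.20 to 0.76, adjusted p = 0.151). Spots of 1 array share their RNA and are not replicates, and median centring put the stable mean at -0.05.

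**Figure D4:**
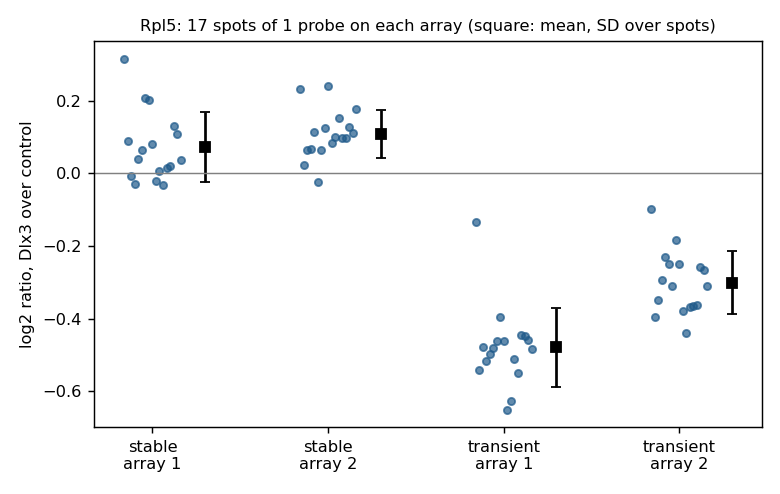
Log2 ratio of Dlx3 over control (y axis) at the 17 spots of the Rpl5 probe on each of the 4 arrays (x axis), with the mean and SD over spots as squares and bars. All 34 transient spots lie below the lowest stable spot.

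Genes that build ribosomes were called lower or not at all in stable transfectants. Of 68 ribosome biogenesis genes listed, 47 had a probe, and of 49 tested probes 0 rose and 17 fell, against 11.6 and 11.1% of all probes. The median was -0.25, with 44 below 0. Fallen genes included Pes1 (-0.69), Bop1 (-0.61) and Wdr12 (-0.68), which form a complex needed for the large subunit, and Rrs1 (-0.70) and Rpf2 (-0.43), which in yeast bring the particle of Rpl5 and 5S RNA into it. Nop56 (-0.38) and Nop58 (-0.52) belong to the particles that methylate ribosomal RNA, Nop10 (-0.55) to those that pseudouridylate it, and Ncl (nucleolin, -0.41) is an abundant nucleolar protein. Also lower were Ddx21, Wdr75, Gtpbp4, Nol6, Nol11, Rpf1, Taf1c and 1 of 3 probes of Taf1d. Adjusted p for these 17 ran from 0.00819 for Rrs1 to 0.0486 for Nol11, and 10 probes of the list were called without either transient array. The called probes of Rpf1, Rpf2, Gtpbp4, Nol6 and Taf1d did not exceed the randomized oligonucleotides. In transient transfectants 0 of the 49 probes were called, the median was -0.29 and 43 were below 0. Nop10, at -1.04 and -0.67, had the lowest transient mean (-0.86, adjusted p = 0.0627). The transient count was 24 on the transient arrays alone or without either stable array, where 1288 probes were called in all, and 23 with median centring, where 647 were.

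Factors of mitochondrial transcription and translation had 19 tested probes, of which 0 rose and 4 fell in the stable group, with a median of -0.12, against 11.6 and 11.1% of all probes. The 4 were Mterf3 (-0.59) and Mterf4 (-0.38), of a family that acts in mitochondrial gene expression and ribosome assembly, Tfb2m (-0.35), a transcription initiation factor, and Polrmt (-0.33), the mitochondrial RNA polymerase. Each of these 4 was below 0 on all 4 arrays. The Mterf4 probe did not exceed the randomized oligonucleotides. The other mRNAs known for terminal oligopyrimidine tracts had 13 tested probes, of which Eef1g (-0.71) and Eef1b2 (-0.46), subunits of the factor that reloads elongation factor 1 alpha, fell and 11 were not called, with a median of 0.01. As 11.1% of all probes were called lower, 2 of 13 is near the background. Of 5 tested ribosomal proteins known by other names, which include the member Rps27a, 0 were called in the stable group, and Dap3, of the mitochondrial small subunit, read -0.23 and -0.26 (adjusted p = 0.0594). In the transient group 0 probes of these 3 lists were called.

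**Figure D5:**
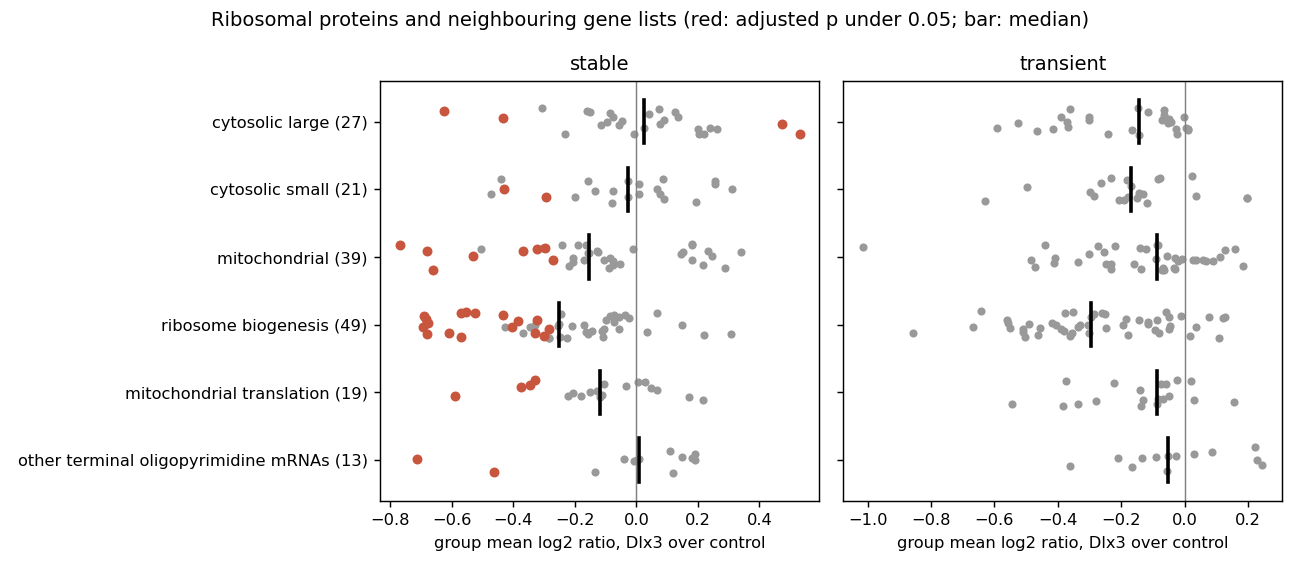
Group mean log2 ratio of Dlx3 over control (x axis) for the 3 classes of ribosomal proteins and 3 neighbouring gene lists (y axis, with the number of tested probes), in the stable (left) and transient (right) groups. Red points passed limma adjusted p under 0.05 and bars are medians: 17 of 49 biogenesis probes and 8 of 39 mitochondrial members were called lower in the stable group.

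The array also holds genes with ribosomal protein symbols under other names, mostly clone names, which the rule leaves out. These were looked up by symbol after the members' values had been seen, so genes named as like a ribosomal protein are included. Rpsa is also in the list of ribosomal proteins known by other names. Of 19 such tested cytosolic probes 0 rose and 1, of the like gene Rpl7l1 (-0.30), fell in the stable group, with a median of -0.06. Of 27 mitochondrial ones 0 rose and 4 fell, with a median of -0.05, and the share called lower was near the 11.1% of all probes. In the transient group 0 of either kind were called, and the medians were -0.10 and -0.13.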

How the data were processed

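Per the file headers, the deposited scanner tables give foreground and background intensity per spot for Cy5 and Cy3, and the percent of saturated pixels, as read by GenePix Pro 5.0.0.49, with no normalization. The authors' deposited value table holds a score per spot whose normalization is not stated. Set against the scanner values it behaved as minus the linear ratio of control over Dlx3, and it was used only as an alternative, with column medians of -1.001 to -1.007. Per the labels' protocols, total RNA came from RNeasy kits and was labelled by the aminoallyl method.

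Intensities were corrected with normexp (offset 50) and normalized by global loess within each array in limma 3.58.1 (R 4.3.3). Blank spots, randomized oligonucleotides and spots marked bad were left out, and repeated spots (17 for Rpl5) were combined to 1 value. Testing required that either channel of a probe exceed background by 2 background SDs on at least 2 arrays. A linear model with 1 mean per group was fitted to all 4 arrays over all probes (2 residual and 4.2 prior degrees of freedom). P-values are two-sided and adjusted by Benjamini-Hochberg over all probes, and intervals are 95%. The number of arrays limits the precision of every ratio. The code was tested on simulated data.

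Members were named through a RefSeq gene table (GRCm38.p6, names only), and where both routes applied 69 of 70 agreed. The text names every called member, the 3 highest and 3 lowest of each class in each group, Rpl5 and Dlx3, and the called genes of the neighbouring lists, except that some members this rule names are not reported here. Genes named beyond that rule (Rpl6, Rpl24, Rpl35, Mrpl52, Dap3, Rpl7l1, Rpsa and the members named for stable minus transient) were chosen after their values were seen. The members and lists were chosen with earlier results of these data known. Alternatives covered background correction, normalization, filters, saturated spots, the authors' table, each group alone and each array left out.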

Additional observations from a re-analysis of the deposited data

How the results depend on the processing

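In the stable group, 3320 probes and 14 members were called. These counts were 2072 and 7 with plain background subtraction, 2141 and 7 with scale normalization, and 1228 and 6 on the stable arrays alone, and 1355 probes passed under the filter against randomized oligonucleotides. Leaving out an array gave 1228 to 4350 probes and 6 to 18 members. In the transient group, 21 probes and 0 members were called. Probe counts were 0 with plain subtraction, 42 with no subtraction, 12 with no filter, 59 with the randomized filter, 647 with median centring, 1400 with scale normalization, 223 in the authors' table and 1288 on the transient arrays alone. Member counts were 10 with median centring, 12 with scale normalization, 1 in the authors' table (Mrps12) and 11 on the transient arrays alone. Leaving out an array gave 3 to 1288 probes and 0 to 11 members. For stable minus transient, 35 probes became 0 with plain subtraction, 88 with median centring, 13 with the randomized filter and 3 to 1345 with an array left out, and 0 members became 0 to 6.

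Median centring and the authors' table lowered the class medians. They gave -0.137 and -0.143 for cytosolic large in stable, -0.321 and -0.258 in transient, -0.355 and -0.299 for cytosolic small in transient, -0.172 and -0.212 for mitochondrial in stable and -0.181 and -0.152 in transient. The mitochondrial stable median (-0.154) was -0.162 with plain and -0.121 with no subtraction, -0.127 with scale normalization, -0.140 with no filter, -0.142 with the randomized filter and -0.154 to -0.115 with an array left out. Among the named genes the sign turned for the values that follow. Median centring and the authors' table put transient Rpl8 at -0.183 and -0.124, Rpl13a at -0.176 and -0.133, Rpl10a at -0.185 and -0.148 and Rps4x at -0.157 and -0.0986, and stable Rpl5 at -0.0541 and -0.0741. Print-tip loess gave -0.0074 for Rpl8 and -0.0404 for Rps4x in transient, and median centring gave -0.0027 for Mrps10. With an array left out, the range was -0.0368 to 0.548 for Rps26 in stable, and in transient -0.0018 to 0.011 for Rpl8, -0.0293 to 0.0489 for Rpl13a, -0.0282 to 0.0495 for Rpl10a and -2.08 to 0.0568 for Mrpl4. For Dlx3, stable minus transient ranged over the same fits from -0.4173 to 0.0023. The cause of these shifts was not tested. Stable arrays could not be paired with transient arrays because the labels give no replicate numbers. Each ratio already sets Dlx3 RNA against the control RNA of the same array. Rpl21 had no value with saturated spots left out. Where leaving out an array left a group with 1, that array was assumed to vary like the other group. Counts of calls per class and of arrays sharing a sign were chosen after seeing the data.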
